A study of Homo sapiens with 6 samples.

Results

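The genes described here are the long noncoding RNA genes that Ensembl 94 names LINC followed by a number, and which were detected in BT549 cells. They were chosen by name and by measured abundance, since a gene was taken when its symbol in Ensembl 94 was LINC and digits alone and its raw counts summed to at least 60 over the 6 libraries. That rule found 128 of the 58735 genes in the count table. The table held 1878 LINC genes in all, of which 1267 had no count in any library, 483 had 1 to 59 counts and 128 reached the minimum. BT549 is an established cell line of basal-like breast cancer. The compound AS1842856 blocks DNA binding by the transcription factor FOXO1. All 6 libraries came from BT549 cells, 3 exposed to DMSO, the solvent control, and 3 to AS1842856, in both cases for 48 h. The sample labels give its dose as 200 nM and the study's methods text as 1 μM, a difference not resolved here. The labels name no genetic change in any of these cells, and a single cell line was used. The replicates were lettered A, B and C in each group and the study describes them as biological. The study asked which genes depend on FOXO1 in these cells, and the comparison of the groups is the same for every gene below. It also found that FOXO1 RNAi lowered LEF1 and TCF7, which AS1842856 raised. The RNAi was read earlier than 48 h, in BT549 and in glioblastoma cells. Disruption of FOXO1 in the glioblastoma cells also lowered both genes, and a FOXO1 mutant defective in DNA binding restored TCF7 there. Other known FOXO1 targets, SOD2, INSR and GADD45A, fell with AS1842856. From these results the study proposed that the compound modulates FOXO1 and does not only inhibit it. Whether a change below depends on FOXO1 was not tested.

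A LINC symbol is given to a long RNA that has no protein-coding frame of note, no known function at the time of naming and no better name from a host or neighbouring gene, so the number carries no information on relatedness. Such RNAs are capped, often spliced and polyadenylated like messenger RNAs, and are as a class less abundant and more restricted to particular cell types than messenger RNAs. Known long noncoding RNAs act in several ways, such as regulating the gene next to their own start, holding proteins together, binding microRNAs, carrying small nucleolar RNAs in their introns, or encoding a small protein that was missed at annotation. For most genes described here no such role is established.

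The libraries held between 15289500 and 22981832 counts on genes, and their scaling factors lay between 0.995 and 1.01. The mesenchymal genes expected of BT549 were abundant in DMSO, with VIM at 1320 ± 52.0, SPARC at 1200 ± 55.1 and CD44 at 897 ± 6.20 CPM (SD, n = 3), where CPM is the count per gene brought to a common library size after TMM scaling. The epithelial genes CDH1 and EPCAM had 1 and 16 counts in all 6 libraries together, and the oestrogen receptor gene ESR1 had 1. The luminal genes GATA3 (50.9 ± 2.47 CPM) and KRT8 (40.9 ± 1.79 CPM) were detected in DMSO although they had been listed as low for this line. So were ERBB2 (46.7 ± 2.1 CPM) and, at a lower level, FOXA1 (1.43 ± 0.401 CPM), from the same list. Of the genes of other cell types, CD3E had 0 counts, PECAM1 had 1 and ALB had 10, while the leukocyte gene PTPRC was at 1.15 ± 0.433 CPM in DMSO and 3.16 ± 0.480 CPM with AS1842856 (SD, n = 3). The part of PTPRC in the results below was not tested.

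The 128 detected LINC genes were rare RNAs. Per length, their mean FPKM (fragments scaled to exon length and library size) over the 6 libraries ran from 0.0572 to 18.6, with a median of 0.843. The median FPKM was 5.85 over the protein-coding genes tested and 4.62 over all genes tested. Only 59 of the 128 had a mean FPKM of at least 1. Summed counts ran from 60 to 6606 with a median of 211.5, and 77 genes had fewer than 300 counts over the 6 libraries. Since the summed count chose the genes, these levels are a description. Together the 128 genes took 730, 756 and 735 CPM in the DMSO libraries and 687, 677 and 691 CPM in the AS1842856 libraries. All 3 summed levels were lower with AS1842856 than the lowest with DMSO. LINC01293, LINC01291 and LINC02593 carried that difference, since without them, a sum taken after their values were seen, the other 125 genes took 634, 658 and 635 CPM in DMSO and 660, 652 and 666 CPM with AS1842856, which overlap.

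The genes were spread over 23 chromosomes. Their exons covered 371 to 28876 bases, with a median of 2836 bases against 5198 for the protein-coding genes tested, and 22 of the 128 had a single exon. Of the 128, 98 were annotated as lincRNA, 11 as antisense and 10 as processed transcript, and the rest as transcribed pseudogenes or bidirectional-promoter RNAs. The gene body overlapped another annotated gene in 72 cases, and exons shared bases with exons of another gene in 46, in 31 of them on the opposite strand. The use of strand in counting is not given in the sources used here, so reads on the shared bases of these 46 genes may come from either gene. In 13 of the 46 the overlapping gene had more counts than the LINC gene.

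At the edge of the rule, LINC00629 had 60 counts over the 6 libraries, and LINC01111 and LINC00539 had 62 each. LINC01772 had 58 counts, and LINC01605 and LINC00240 had 56 each, so these 3 were left out. LINC01111 had 22, 16 and 10 counts in DMSO and 1, 11 and 2 with AS1842856, and it was among 6 of the 128 genes that edgeR's filter on low counts did not pass to the test. The other 5 not tested were LINC01094, LINC01547, LINC01137, LINC00324 and LINC00539, with at most 22 counts in any library.

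Of the 122 detected LINC genes tested, 57 (46.7%) differed between the groups. A gene was called when edgeR's quasi-likelihood test gave an adjusted p under 0.05, by the Benjamini-Hochberg method over all 14338 genes, of which 56.0% were called. The calls went both ways. 30 LINC genes (24.6%) were higher with AS1842856, beside 27.6% of all genes, and 27 (22.1%) were lower, beside 28.4% of all genes. The share called was thus below that of all genes. Changes of at least 1 on the log2 scale were called for 27 LINC genes (22.1%), 13 upward and 14 downward, beside 10.6% of all genes, 4.27% upward and 6.33% downward. In 11 of these 27 the group with the lower level had fewer than 30 counts, so that the gene reached the minimum mainly through the other group, and nothing is read from that share. Among the 105 genes tested with at least 30 counts in each group there were 16 such changes (15.2%), 7 upward and 9 downward. The median log2 fold change was 0.00 over the LINC genes and 0.00 over all genes, and the median size of the change without its sign was 0.52 and 0.26. The standard error was larger too, with a median of 0.27 over the LINC genes and 0.08 over all genes. In bulk RNA, fewer cells that express a gene and less of its RNA per cell cannot be told apart.

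In 64 of the 122 (52.5%) the levels of the groups did not overlap, beside 59.9% of all genes. In 36 of these AS1842856 was higher (29.5% of all genes did so) and in 28 it was lower (30.3% of all genes). The call and the separation of the groups mostly went together, since 52 of the 57 genes called did not overlap and 12 genes that did not overlap were not called. A single gene in 3 libraries against 3 cannot reach an exact two-sided permutation p below 0.1. A gene near the minimum could enter through 1 group alone. For 11 genes the DMSO counts summed to fewer than 30 and for another 11 the AS1842856 counts did. Of the 105 genes tested with at least 30 counts in each group, 24 were higher and 22 lower. Over all genes tested, where that condition was not set, 27.6% were higher and 28.4% lower.

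**Figure D1:**
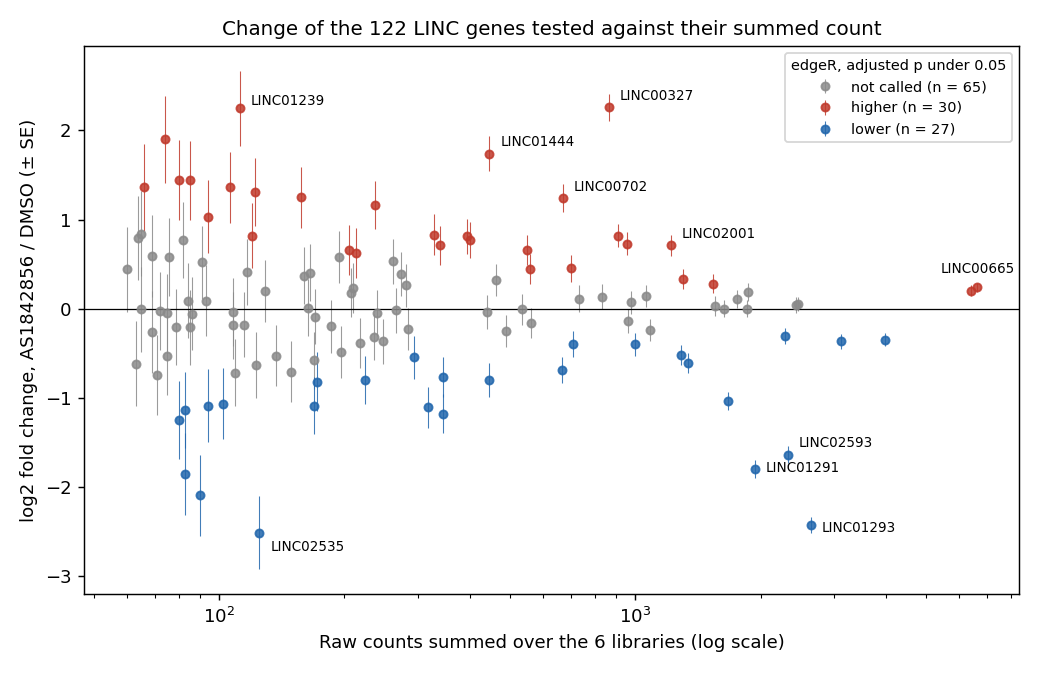
Log2 fold change of the 122 detected LINC genes tested (vertical axis, AS1842856 over DMSO, bars are the standard error of the fit) against raw counts summed over the 6 libraries (horizontal axis, log scale), in red for the 30 called higher, blue for the 27 called lower and grey for the 65 not called by edgeR. The called genes lie between -2.52 and 2.26, and the standard errors narrow from left to right as counts rise.

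The share of genes called varied with their depth. Among genes with 60 to under 120 summed counts, 13 of 37 LINC genes (35.1%) were called, beside 30% of protein-coding genes and 22.4% of all genes with such counts. From 120 to under 300 counts it was 11 of 34 (32.4%), beside 40.9% and 31.7%. From 300 to under 1000 counts it was 19 of 28 (67.9%), beside 52.9% and 50.6%. From 1000 to under 10000 counts it was 14 of 23 (60.9%), beside 62.0% and 61.5%. Genes with more counts than that, none of them LINC genes, were left out of these shares. The LINC genes were thus above the protein-coding genes in 2 ranges and below them in 2. Long noncoding RNA genes other than the LINC genes that reached the minimum were called in 28.3% of 1256. Their median summed count was 159, beside 230 for the LINC genes tested, and their median standard error was 0.33, beside 0.27. That share is therefore not compared with the LINC share at equal depth. The smallest change called, 0.20 in LINC00641, was in a gene with 6386 summed counts.

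**Figure D2:**
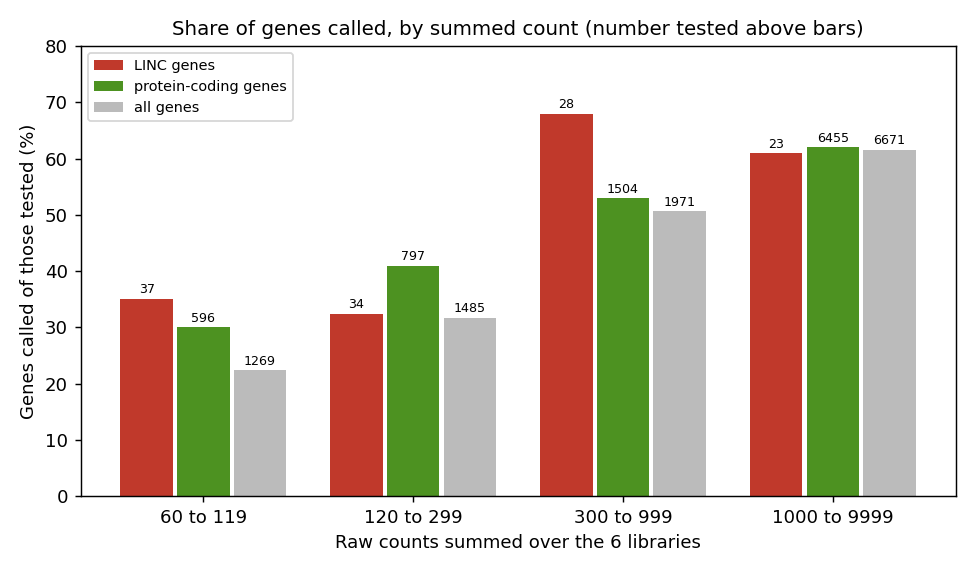
Percent of genes called at an adjusted p under 0.05 (vertical axis, from 0) in 4 ranges of summed raw count (horizontal axis) for LINC genes (red), protein-coding genes (green) and all genes (grey), with the number of genes tested above each bar. The LINC share is 35.1% and 32.4% in the lower ranges and 67.9% and 60.9% in the higher ones.

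The largest falls in abundant LINC genes came from neighbours on chromosome 2. LINC01293 was, per length, the most abundant gene of the 128, with a mean FPKM of 31.3 in DMSO. In counts, its level was 38.8, 41.3 and 39.5 CPM in DMSO and 9.30, 6.39 and 6.79 CPM with AS1842856. Every treated library was below every control library, and the log2 fold change was -2.43 (SE 0.09, edgeR adjusted p = 2.01e-69). LINC01291, which ends 1840 bases before LINC01293 begins on the same strand, was at 24.8, 26.0 and 29.5 CPM in DMSO and at 6.96, 8.58 and 7.23 CPM with AS1842856. It fell by 1.80 on the log2 scale (SE 0.10, adjusted p = 1.57e-44), and its groups did not overlap either. LINC01291 (ENSG00000204792) lies at chr2:74918148-74938418 and LINC01293 (ENSG00000230836) at chr2:74940258-74942670, both on the plus strand of GRCh38. Their nearest protein-coding start is that of POLE4, an accessory subunit of DNA polymerase epsilon, which went from 33.0 ± 3.44 in DMSO to 26.4 ± 0.374 CPM (SD, n = 3), a log2 fold change of -0.33 (SE 0.07, adjusted p = 4.69e-05). The 2 genes shared no stretch of 31 bases with each other, so reads that match one do not match the other over such a length.

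The first splice junction in the longest annotated transcript of each gene is shown because these neighbours fell together while their RNAs are distinct. In GENCODE 29 the LINC01293 transcript has 1266 bases in 2 exons and the LINC01291 transcript has 3662 bases in 2 exons. The last 60 bases of exon 1 are in lower case and the first 60 bases of exon 2 in capitals.
LINC01293: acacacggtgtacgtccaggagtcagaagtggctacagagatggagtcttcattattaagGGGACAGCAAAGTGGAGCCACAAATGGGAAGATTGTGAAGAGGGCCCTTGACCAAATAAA
LINC01291: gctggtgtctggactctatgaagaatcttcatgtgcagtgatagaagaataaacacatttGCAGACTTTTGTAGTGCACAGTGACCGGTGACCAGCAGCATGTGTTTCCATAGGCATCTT

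LINC02593 on chromosome 1 was the next of the abundant genes to fall. It was at 32.0, 30.7 and 30.9 CPM in DMSO and at 11, 9.24 and 10.0 CPM with AS1842856, with no overlap. Its log2 fold change was -1.64 (SE 0.09, adjusted p = 1.40e-44). LINC02593 (ENSG00000223764) is a single-exon gene at chr1:916865-921016 on the minus strand of GRCh38. SAMD11, which starts 2912 bases away on the opposite strand, went from 188 ± 11.4 in DMSO to 100 ± 2.34 CPM (SD, n = 3), a log2 fold change of -0.91 (SE 0.04, adjusted p = 4.10e-58). LINC01224 on chromosome 19, named here after its values were seen, was at 20.2, 20.1 and 19.3 CPM in DMSO and at 9.30, 10.2 and 9.31 CPM with AS1842856. Its log2 fold change was -1.04 (SE 0.10, adjusted p = 2.38e-19), while its nearest protein-coding gene ZNF91 had -0.01 (adjusted p = 0.956).

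LINC02535 had the largest fall of all detected LINC genes, from a low level. It was at 1.78, 2.34 and 1.67 CPM in DMSO and at 0.180, 0.482 and 0.280 CPM with AS1842856. The groups did not overlap, and the log2 fold change was -2.52 (SE 0.41, adjusted p = 1.05e-08). The nearest protein-coding start, 59398 bases away on the opposite strand, is that of NT5E, the ectonucleotidase CD73 that makes adenosine outside the cell. NT5E went from 631 ± 23.9 in DMSO to 467 ± 14.8 CPM (SD, n = 3), a log2 fold change of -0.43 (SE 0.03, adjusted p = 1.66e-27).

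LINC01711 on chromosome 20 was at 1.5, 1.37 and 1.02 CPM in DMSO and at 0.360, 0.219 and 0.336 CPM with AS1842856, a log2 fold change of -2.10 (SE 0.45, adjusted p = 1.51e-05). The fall was seen in each treated library, while STX16, a syntaxin of the Golgi and the nearest protein-coding gene, was at 0.08 (adjusted p = 0.191). LINC00842 was at 1.28, 1.17 and 1.02 CPM in DMSO and at 0.540, 0.263 and 0.168 CPM with AS1842856, a log2 fold change of -1.86 (SE 0.46, adjusted p = 1.80e-04). With 65 counts in DMSO and 18 with AS1842856, LINC00842 likewise met the minimum by its DMSO counts alone. Its treated libraries differed among themselves more than its controls did, and leaving out AS1842856 replicate A moved the log2 fold change to -2.36.

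Smaller falls of at least 1 on the log2 scale with no overlap were called in 6 more genes. LINC01085 went from 4.24 ± 0.393 to 1.88 ± 0.147 CPM (SD, n = 3), with a log2 fold change of -1.18 (SE 0.22, adjusted p = 8.70e-07). LINC00342 went from 3.85 ± 0.130 to 1.79 ± 0.110 CPM, with a log2 fold change of -1.11 (SE 0.23, adjusted p = 1.01e-05). LINC00342 shared 48.0% of its 31-base stretches with transcripts of other genes, so its count is uncertain. LINC02035 went from 2.08 ± 0.526 to 0.971 ± 0.324 CPM, with a log2 fold change of -1.09 (SE 0.32, adjusted p = 0.00205). The other 3 were called in the full comparison and lost the call when 1 library was left out. LINC00882 had a log2 fold change of -1.25 (adjusted p = 0.0107), and -1.17 without DMSO replicate A (adjusted p = 0.0507). LINC00638 had -1.14 (adjusted p = 0.0181), and between -0.88 and -1.04 without DMSO replicate A, AS1842856 replicate A or AS1842856 replicate B. LINC01775 had -1.07 (adjusted p = 0.0145), -0.94 without DMSO replicate A and -0.87 without AS1842856 replicate B. DESeq2 did not call these 3 genes either. LINC00882 and LINC00638 had 24 and 26 counts with AS1842856, so they reached the minimum mainly through DMSO.

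**Figure D3:**
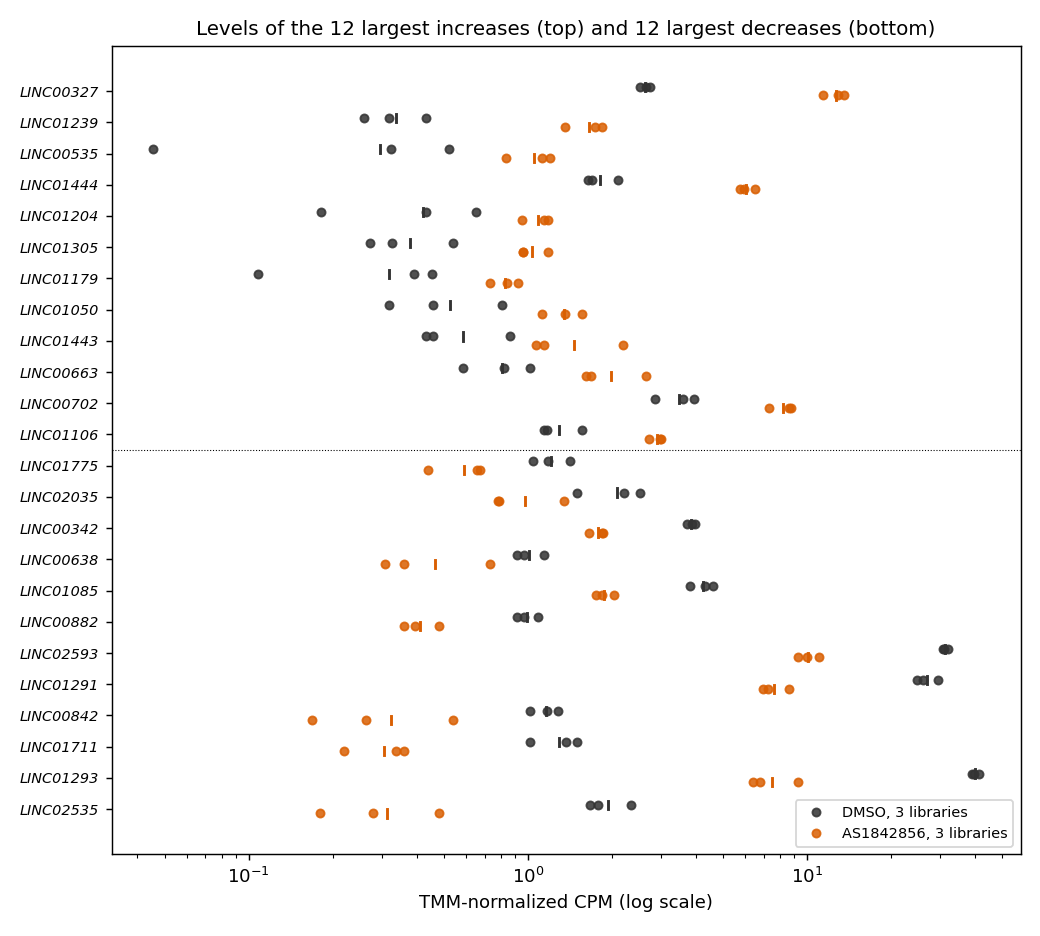
TMM-normalized CPM (horizontal axis, log scale) in each of the 3 DMSO (black) and 3 AS1842856 (orange) libraries for the 12 largest increases (above the dotted line) and the 12 largest decreases (below it), with short vertical bars at the group means. The points of both groups are separate in every row, since only genes without overlap are shown. LINC01293 is the most abundant in DMSO, at 39.9 CPM, and is at 7.49 CPM with AS1842856, where LINC00327 is higher at 12.6 CPM.

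Among the rises, that of LINC00327 was the largest, and its standard error was the smallest among the 13 rises of at least 1 on the log2 scale. LINC00327 (ENSG00000232977, chr13:23466571-23487464, plus strand, GRCh38) was at 2.64, 2.73 and 2.53 CPM in DMSO and at 12.9, 11.4 and 13.6 CPM with AS1842856. The groups lay far apart, with a log2 fold change of 2.26 (SE 0.15, adjusted p = 2.25e-35), with a range of 2.20 to 2.33 when single libraries were left out.

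On chromosome 18, LINC01444 and LINC01443 rose together. LINC01444 (ENSG00000264301, chr18:14969001-14970468, minus strand, GRCh38) lies inside the body of LINC01443 (ENSG00000266554, chr18:14946267-14974215, plus strand), and their exons share no bases. LINC01444 was at 1.64, 1.69 and 2.10 CPM in DMSO and at 6.48, 5.74 and 5.94 CPM with AS1842856. The log2 fold change was 1.74 (SE 0.20, adjusted p = 3.63e-15), with no overlap. LINC01443 was at 0.865, 0.456 and 0.431 CPM in DMSO and at 1.14, 2.19 and 1.07 CPM with AS1842856, a log2 fold change of 1.31 (SE 0.38, adjusted p = 0.00154). That rise leaned on AS1842856 replicate B, without which it was 0.87 and not called (adjusted p = 0.117). The nearest protein-coding gene, ANKRD30B, had too few counts to be tested.

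LINC00702 on chromosome 10 was at 3.60, 2.86 and 3.93 CPM in DMSO and at 8.76, 8.63 and 7.29 CPM with AS1842856, a log2 fold change of 1.24 (SE 0.16, adjusted p = 1.15e-12). The libraries did not overlap, and the nearest protein-coding gene KLF6, a zinc finger transcription factor 458631 bases away, had a log2 fold change of 0.07 (adjusted p = 0.132). LINC01106 went from 1.29 ± 0.235 to 2.90 ± 0.157 CPM (SD, n = 3), with a log2 fold change of 1.16 (SE 0.27, adjusted p = 6.95e-05). LINC01106 shared 90.4% of its 31-base stretches with LINC01123, a near copy, so how reads were split between the 2 is uncertain. LINC00663 went from 0.809 ± 0.218 to 1.98 ± 0.572 CPM, with a log2 fold change of 1.25 (SE 0.34, adjusted p = 6.79e-04), while its neighbour ZNF14 had -0.37 (adjusted p = 0.0544).

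Several of the large rises were from levels under 1 CPM in DMSO in genes whose nearest protein-coding gene rose as well. In DMSO, LINC01239, LINC01305, LINC01179 and LINC00535 had 19, 21, 18 and 15 summed counts. With AS1842856 they had 93, 59, 48 and 59, so they reached the minimum summed count mainly through the group where they were higher. Nothing is therefore read from how often such rises were seen. LINC01239 was at 0.319, 0.260 and 0.431 CPM in DMSO and at 1.74, 1.36 and 1.85 CPM with AS1842856, a log2 fold change of 2.25 (SE 0.42, adjusted p = 6.20e-07). DMRTA1, a DMRT-family transcription factor gene that starts 199359 bases away, rose from 0.707 ± 0.112 to 2.97 ± 0.350 CPM (SD, n = 3), by 2.04 on the log2 scale (SE 0.31, adjusted p = 8.13e-10). LINC01305 was at 0.273, 0.326 and 0.538 CPM in DMSO and at 0.960, 0.964 and 1.18 CPM with AS1842856, a log2 fold change of 1.44 (SE 0.45, adjusted p = 0.00366). SP9, a zinc finger transcription factor gene 8919 bases away, rose from 0.303 ± 0.169 to 1.27 ± 0.458 CPM, by 2.01 on the log2 scale (SE 0.46, adjusted p = 5.13e-05). Both pairs stayed near or below 3 CPM in every group.

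LINC01179 was at 0.455, 0.391 and 0.108 CPM in DMSO and at 0.840, 0.920 and 0.729 CPM with AS1842856, a log2 fold change of 1.36 (SE 0.49, adjusted p = 0.0117). It was not called without DMSO replicate C (0.95, adjusted p = 0.130) or without AS1842856 replicate B (1.27, adjusted p = 0.0566), nor by DESeq2. TLL1, a tolloid-like metalloprotease gene 188619 bases away, rose from 0.435 ± 0.0627 to 5.57 ± 0.380 CPM (SD, n = 3), by 3.67 on the log2 scale (SE 0.28, adjusted p = 1.21e-28). LINC00535 on chromosome 8 was at 0.0455, 0.521 and 0.323 CPM in DMSO and at 1.20, 0.832 and 1.12 CPM with AS1842856, a log2 fold change of 1.90 (SE 0.49, adjusted p = 3.38e-04). DMSO replicate A was its lowest library, and without it the change was 1.31. Its exons share 37 bases with FAM92A on the opposite strand, a gene with 8875 summed counts that rose by 0.89 on the log2 scale (SE 0.05, adjusted p = 1.68e-44).

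The remaining large rises were LINC01204 on chromosome X and LINC01050 on chromosome 13, neither with a protein-coding neighbour abundant enough to test. LINC01204 was at 0.182, 0.651 and 0.431 CPM in DMSO and at 1.14, 1.18 and 0.953 CPM with AS1842856, a log2 fold change of 1.44 (SE 0.44, adjusted p = 0.00292), and 1.03 without DMSO replicate A (adjusted p = 0.0686). LINC01050 was at 0.319, 0.456 and 0.807 CPM in DMSO and at 1.56, 1.36 and 1.12 CPM with AS1842856, a log2 fold change of 1.36 (SE 0.40, adjusted p = 0.00190). Of the other rises called, that of LINC02454, named here after its values were seen, was 1.03 (SE 0.41, adjusted p = 0.0253) with overlapping groups. Its nearest protein-coding gene HMGA2, an architectural chromatin protein gene, rose by 1.15 on the log2 scale (SE 0.06, adjusted p = 8.63e-49).

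The pairs above were followed over all 95 LINC genes tested whose nearest protein-coding gene was also tested, nearest being measured between start sites. No limit was set on the distance, which had a median of 43326 bases. Both genes were called in 29 pairs, and in 24 of these (82.8%) they moved the same way. LINC and neighbour were both higher in 12 and both lower in 12, while a higher LINC gene stood beside a lower neighbour in 4 and the reverse in 1. The same count for protein-coding genes and their nearest protein-coding neighbour gave 2064 of 3328 (62.0%). The share was 87.5% (14 of 16) among LINC genes that overlap no other gene, 80% (12 of 15) with starts 1 to 50 kb apart and 83.3% (10 of 12) with starts farther apart. Across the 95 pairs, the log2 fold changes had a Pearson r of 0.44 and a Spearman rho of 0.38, beside 0.19 and 0.19 across 8841 protein-coding pairs. These correlations run across genes of the same 6 libraries and the same scaling, and genes are not independent replicates. The 95 pairs held 91 different neighbours, since SAMD11 stood in 3 pairs and POLE4 and ANKRD10 in 2 each. Some of the LINC genes had fewer than 30 counts in 1 group and reached the minimum mainly through the other. Among the 24 same-way pairs, these were LINC01239, LINC01305, LINC01179 and LINC00535, with 19, 21, 18 and 15 counts in DMSO. LINC02535 and LINC00638 had 19 and 26 counts with AS1842856. The protein-coding pairs were not chosen by this minimum. Nothing is therefore read from the difference between the LINC and protein-coding shares or correlations, which was not tested.

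**Figure D4:**
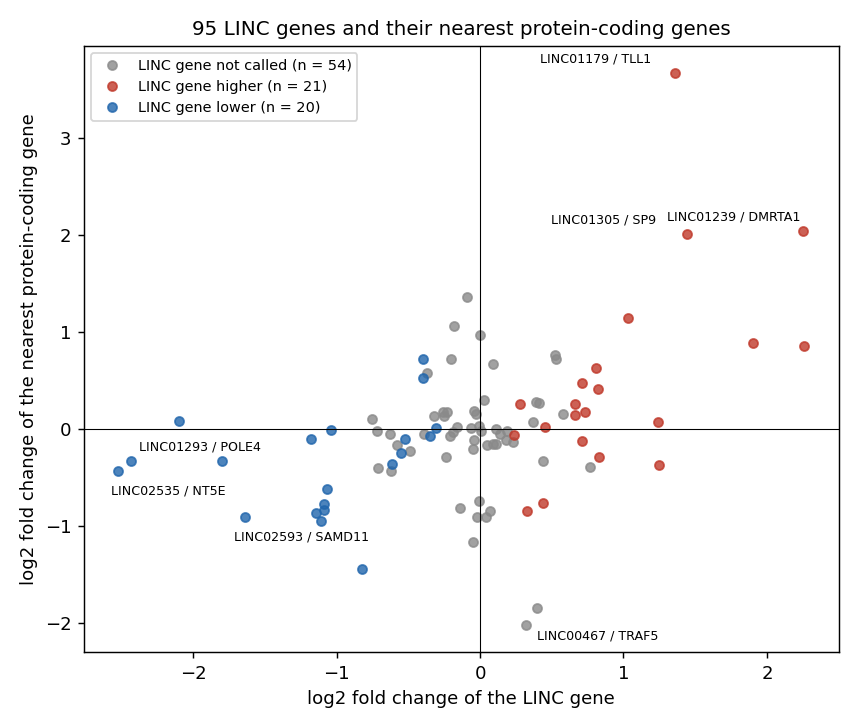
Log2 fold change of the nearest protein-coding gene (vertical axis) against that of the LINC gene (horizontal axis) for 95 pairs, coloured by the call of the LINC gene (red higher, blue lower, grey not called). Most red points lie to the upper right and most blue points to the lower left, with a Pearson r of 0.44 over all points, and LINC00467 with TRAF5 lies below.

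Some LINC genes did not move with their neighbour. LINC00052 was higher by 0.33 (SE 0.11, adjusted p = 0.00902) while NTRK3, a neurotrophin receptor gene 679839 bases away, was at -0.85 (adjusted p = 4.42e-21). LINC00346 was lower, at -0.40 (SE 0.13, adjusted p = 0.00441), while ANKRD10 was at 0.72 (adjusted p = 7.15e-40). LINC00467 had a log2 fold change of 0.32 that was not called (adjusted p = 0.136) beside a fall of its nearest start, TRAF5, a TNF receptor adaptor gene, from 17.6 ± 1.66 to 4.29 ± 0.933 CPM (SD, n = 3), a log2 fold change of -2.02 (SE 0.13, adjusted p = 2.95e-38). LINC01578 is known as CHASERR, a noncoding RNA that holds down its neighbour CHD2. LINC01578 was at 34.3, 28.8 and 29.7 CPM in DMSO and at 25, 23.5 and 23.6 CPM with AS1842856, a log2 fold change of -0.37 (SE 0.08, adjusted p = 7.67e-06), while CHD2 had 0.10 (SE 0.06, adjusted p = 0.148).

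By position in the genome, 90 of the 128 genes neither overlapped a protein-coding gene nor started opposite one within 1 kb nor held a microRNA gene. Of the 86 tested among these intergenic genes, 24 were higher and 23 lower (54.7% called, beside 56.0% of all genes). Of 19 that overlapped a protein-coding gene on the opposite strand, 3 were higher and 2 lower (26.3%). Of 12 that overlapped one on the same strand, 2 were higher and 2 lower (33.3%). Of 9 tested that started divergently from a protein-coding gene, 2 were higher and none lower (22.2%), namely LINC01089 beside SETD1B and LINC01560 beside ZNF41. Neither of the microRNA hosts, LINC00472 and LINC01138, was called, at 0.23 (adjusted p = 0.493) and 0.58 (adjusted p = 0.262). 6 genes stood in more than 1 of these groups, and the groups were not tested against each other.

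The most abundant LINC genes per length after LINC01293 were, by mean FPKM, LINC00641 (9.80), LINC00665 (8.03), LINC02001 (7.05), LINC00839 (6.63) and LINC00052 (5.77). LINC00665 was at 54.7, 53.1 and 52.0 CPM in DMSO and at 62.5, 64.2 and 62.5 CPM with AS1842856, a log2 fold change of 0.24 (SE 0.05, adjusted p = 3.43e-05). LINC00641 was at 49.9, 54.4 and 53.2 CPM in DMSO and at 62.4, 63.2 and 55.2 CPM with AS1842856, a log2 fold change of 0.20 (SE 0.06, adjusted p = 7.98e-04). Both rises were small and without overlap. LINC02001, now named SNHG30 as a host of small nucleolar RNA, was at 7.42, 8.14 and 8.83 CPM in DMSO and at 13.3, 14.2 and 12.2 CPM with AS1842856, a log2 fold change of 0.71 (SE 0.12, adjusted p = 2.69e-08). Its exons share bases with another gene on the opposite strand, so its count is uncertain. LINC00839 had 0.11 and was not called (SE 0.10, adjusted p = 0.363).

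Of 26 LINC genes known from the cancer literature, 24 were in the table under that name, 13 were detected and tested, 3 were higher, 3 were lower and 7 were not called, beside 27.6% higher and 28.4% lower over all genes tested. The list's median log2 fold change was 0.11, beside 0.00 over all genes tested. The higher genes were LINC00665, LINC00052 and LINC00662, and the lower ones LINC00963, LINC00346 and LINC00842. LINC00963 was at 40.1, 42.1 and 36.9 CPM in DMSO and at 30.1, 30.5 and 32.5 CPM with AS1842856, a log2 fold change of -0.35 (SE 0.07, adjusted p = 1.44e-06). The change of LINC00662, 0.28 (SE 0.11, adjusted p = 0.0163), came with overlapping groups and was not called without DMSO replicate A, DMSO replicate C or AS1842856 replicate A, nor by DESeq2. LINC00052 and LINC00346 were not called without AS1842856 replicate C (adjusted p = 0.0607 and 0.0741).

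The genes of that list that were not called included 3 often studied in carcinomas. LINC00511, widely described as raised in breast tumours, was at 2.13 ± 0.330 and 2.07 ± 0.367 CPM (SD, n = 3), a log2 fold change of -0.05 (SE 0.26, adjusted p = 0.887). LINC00460 was at 8.50 ± 0.652 and 8.88 ± 0.679 CPM, a log2 fold change of 0.07 (SE 0.13, adjusted p = 0.686). LINC00941 was at 8.96 ± 1.22 and 8.06 ± 1.5 CPM, a log2 fold change of -0.14 (SE 0.13, adjusted p = 0.388). LINC01197, which the study's introduction names, had 0 counts in all 6 libraries, as had 4 others of the list, LINC01614, LINC01638, LINC00261 and LINC01235. Of 10 LINC genes known to encode a small protein, 2 were in the table under that name, and the 1 tested, LINC00467, was not called.

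Because the inhibitor acts on a DNA-binding factor, the promoters of the LINC genes were searched for short motifs. RefSeq windows of 300 bases, 250 before and 50 after the start, on GRCh38.p14, were found for 91 of the 128 genes, 13 of them under a newer symbol. The start lay within 100 bases of the GENCODE 29 start in 56 of the 91. On either strand, the FOXO core GTAAACA stood in 2 of 91 windows (2.20%), those of LINC01305 and LINC00511, beside 3.41% of 27305 promoters. The insulin response element CAAAACA stood in 9 (9.89%), beside 4.91% of all promoters. The motifs of the WNT effectors TCF and LEF, CTTTGAT and CTTTGAA, stood in 1 (1.10%) and 2 (2.20%), beside 2.64% and 4.53%. The FOXO core and the insulin response element end in the same letters (AAACA), and the TCF and LEF motifs differ only in their last letter. A match is a description of the sequence and not a site of binding. The 21 windows of genes called higher held CAAAACA in 3 (14.3%), the 17 of genes called lower in 3 (17.6%) and the 49 of genes not called in 3 (6.12%). The median GC content was 54.7% in windows of genes called higher, 59% in those called lower, 66.0% in those not called and 58.3% in all promoters.

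The windows of 3 risers and 2 fallers are shown because these genes had some of the largest changes. Capitals mark the FOXO core, which LINC01305 holds on the minus strand as its reverse complement, and the other 4 windows hold none of the motifs. The RefSeq start lay 2941 bases from the GENCODE start for LINC00327 and 1324 bases for LINC02593, and at the same base for the others. The window of LINC02535 starts 14616 bases from its GENCODE start and is not shown. All are on GRCh38.p14 and written in the direction of transcription.
LINC00327 (chr13:23469262-23469561, plus strand): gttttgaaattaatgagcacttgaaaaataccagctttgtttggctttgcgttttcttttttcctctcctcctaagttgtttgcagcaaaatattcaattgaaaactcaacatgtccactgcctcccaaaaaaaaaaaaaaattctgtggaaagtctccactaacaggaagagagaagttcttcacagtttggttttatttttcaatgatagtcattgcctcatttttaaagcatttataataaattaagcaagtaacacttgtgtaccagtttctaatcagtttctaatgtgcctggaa
LINC01444 (chr18:14970419-14970718, minus strand): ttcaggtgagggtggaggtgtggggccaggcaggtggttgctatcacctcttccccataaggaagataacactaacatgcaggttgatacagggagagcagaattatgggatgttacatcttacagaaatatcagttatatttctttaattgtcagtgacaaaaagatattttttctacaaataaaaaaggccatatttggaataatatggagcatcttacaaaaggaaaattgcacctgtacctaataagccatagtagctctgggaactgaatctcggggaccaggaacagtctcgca
LINC01305 (chr2:174325777-174326076, plus strand): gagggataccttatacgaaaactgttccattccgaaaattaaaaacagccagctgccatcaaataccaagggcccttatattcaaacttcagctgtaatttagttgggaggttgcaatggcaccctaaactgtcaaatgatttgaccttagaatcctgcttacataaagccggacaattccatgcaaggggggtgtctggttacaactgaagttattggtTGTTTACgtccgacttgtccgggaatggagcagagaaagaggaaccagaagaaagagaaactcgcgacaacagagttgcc
LINC02593 (chr1:919643-919942, minus strand): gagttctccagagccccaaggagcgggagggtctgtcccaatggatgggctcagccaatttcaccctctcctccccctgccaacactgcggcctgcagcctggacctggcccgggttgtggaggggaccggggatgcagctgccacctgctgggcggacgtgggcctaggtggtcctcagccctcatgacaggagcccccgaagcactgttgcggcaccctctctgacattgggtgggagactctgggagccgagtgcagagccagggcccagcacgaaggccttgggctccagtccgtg
LINC00842 (chr10:46398112-46398411, plus strand): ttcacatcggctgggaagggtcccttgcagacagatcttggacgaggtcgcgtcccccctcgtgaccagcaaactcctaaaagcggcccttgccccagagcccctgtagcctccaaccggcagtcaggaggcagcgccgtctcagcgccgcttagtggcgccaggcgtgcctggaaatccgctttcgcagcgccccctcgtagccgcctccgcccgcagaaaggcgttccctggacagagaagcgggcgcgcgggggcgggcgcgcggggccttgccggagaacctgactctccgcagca

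By composition these windows differed widely. Those of LINC00327, LINC01444 and LINC01305 had 33.0%, 40.7% and 44.0% GC with 1, 2 and 8 CpG, and those of LINC02593 and LINC00842 had 66.7% and 68.3% GC with 11 and 31 CpG. With 5 windows chosen for their genes' changes, this is a description only.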

How the data were processed

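RNA-Seq was performed on 6 libraries of BT549 cells, 3 with DMSO and 3 with AS1842856, grouped by the sample labels. The labels give 200 nM and the methods text 1 μM; the dose was not resolved here. The authors deposited raw counts per gene and FPKM values per library. Mapping was with STAR per the methods text, while the submitters' processing notes name CASAVA and Bowtie 0.12.2, with no role. The counting tool and use of strand are not given in the sources used here. All 58735 identifiers matched GENCODE 29 (Ensembl 94, GRCh38).

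Counts were analysed with edgeR 4.0.16 in R 4.3.3 (filterByExpr at counts of 10 and totals of 15, TMM, glmQLFit with robust estimation, glmQLFTest, Benjamini-Hochberg adjustment over 14338 genes, threshold 0.05). The standard error was the log2 fold change divided by the square root of F. Scripts were tested on simulated data. With library totals of 15289500 to 22981832 counts, edgeR's common biological coefficient of variation was 0.0374.

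Genes were named by rule: the 12 largest rises and 12 largest falls called without overlap, the 6 highest by mean FPKM, a list of known LINC genes and LINC01197, the 3 genes on either side of the minimum, and nearest protein-coding genes. Exceptions are said to be chosen after their values were seen. The members, lists and rule were chosen with earlier results of these data known. Shared sequence was the percent of a gene's 31-base stretches found in GENCODE 29 transcripts of other genes on either strand. Alternatives were DESeq2 1.42.0, DESeq2 size factors, library totals, other filters, each library left out, a replicate block, a higher minimum, genes without overlap, and limma 3.58.1 on log2(FPKM + 1) and log2(FPKM + 0.1), with a mean FPKM of at least 0.5 or no filter. Results for some single genes are not reported here.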

Additional observations from a re-analysis of the deposited data

How the results depend on the processing

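Beside the 57 LINC genes called (30 higher, 27 lower), DESeq2 called 42 (21 and 21), and 41 of these were among the 57, each with the same sign. Leaving out each library gave 47 to 55 called, 23 to 29 higher and 23 to 30 lower. The counts moved by over 1.5 times under 4 settings, each of which tested fewer of these genes. With a mean of at least 50 counts, 33 of 51 were called (17 higher, 16 lower). With a mean FPKM of at least 0.5, limma called 35 of 80 on log2(FPKM + 1) (19 and 16) and 35 of 80 on log2(FPKM + 0.1) (18 and 17). Among genes that overlap no other gene, 27 of 54 were called (14 and 13). A minimum of 120 summed counts gave 44 of 85 (23 and 21), no filter gave 54, library totals 56, DESeq2 size factors 57, and limma on log2(FPKM + 1) with no filter 40. In all, 20 of the 57 genes were tested and called under every one of these tests and scalings (10 higher, 10 lower), and 37 with each library left out (19 and 18).

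The replicate block gave 55 calls (28 higher, 27 lower). Deviations of same-lettered libraries correlated at 0.042, -0.012 and -0.003, and those of differently lettered ones between -0.028 and 0.03. No deviation shared by letter was seen, which cannot settle whether the samples were matched. Of the 39 named genes followed through each setting, signs turned in 2, neither of them called: with single libraries left out, LINC00941 ran from -0.23 to 0.00 (0.00 without AS1842856 replicate C), and LINC00511 from -0.19 to 0.09 (0.09 without DMSO replicate A, 0.05 without AS1842856 replicate A). Depth limits the rest: 77 of the 128 genes had fewer than 300 counts over 6 libraries, and a gene not called is not shown to be unchanged.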

Other observations

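Long noncoding RNA genes with a name of their own, a list of 47 of which 37 were tested, were higher with AS1842856 in 14 cases and lower in 8 by edgeR, and 15 were not called, with a median log2 fold change of 0.09. Over all genes tested, 27.6% were higher and 28.4% lower. Small nucleolar RNA hosts, grouped after their values were seen, made up most of the rises, with 11 of 13 higher, none lower and 2 not called (SNHG8 and SNHG12); nothing is read from this share, since the group was formed from these values. Their log2 fold changes ran from 0.09 to 1.14, with EPB41L4A-AS1 at 1.14 (SE 0.07), DANCR at 0.96 (SE 0.05), SNHG3 at 0.70 (SE 0.04) and GAS5 at 0.47 (SE 0.04). Of the other 24, 3 were higher and 8 lower. The nuclear RNAs MALAT1, of speckles, and NEAT1, of paraspeckles, were lower by log2 fold changes of -0.65 (SE 0.04, adjusted p = 5.78e-42) and -0.70 (SE 0.04, adjusted p = 1.25e-42). CASC15 had the largest rise of the list, 4.20 (SE 0.40, adjusted p = 8.54e-20), followed by LUCAT1 at 1.81 (SE 0.15, adjusted p = 1.15e-26). H19, a fetal imprinted RNA, had 0 counts.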
